A study of Mus musculus with 11 samples.

Results

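Interleukin 6 (gene Il6) and the receptor chains for oncostatin M (Osmr) and leukemia inhibitory factor (Lifr) were examined in primary mouse enteric glial cell cultures (msEGCs) after exposure to extracellular ATP. The 3 genes were taken by symbol from the 5 deposited transcript tables, which together list 2510 transcripts of 1967 genes, and 4 transcripts were found: Il6-001, Il6-003, Osmr-001 and Lifr-203. The cultures came from the stripped muscle layer of the small bowel of adult C57BL/6 mice (strain BL6 in the labels). ATP-treated msEGCs received 100 µM ATP for 6 h (6 libraries), and control msEGCs were the same kind of culture without ATP (5 libraries). The treatment field names ATP for all 11 libraries, so the groups rest on the library titles. The cultures were enriched for cells with the glial filament protein GFAP and also held fibroblasts that express smooth muscle actin.

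IL-6 is a secreted cytokine that binds the IL-6 receptor (Il6ra) and then the shared signal chain gp130 (Il6st). Oncostatin M signals through OSMR paired with gp130, and leukemia inhibitory factor through LIFR paired with gp130, so the ligands differ while the gp130 chain is common. The receptor complexes activate JAK kinases and the transcription factor STAT3. In the gut wall, IL-6 is a known product of reactive enteric glia and of inflamed muscle.

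In GENCODE M21 (GRCm38), Il6 spans bases 30013114 to 30019981 of chromosome 5 (plus strand). Osmr (6813577 to 6874969, minus strand) and Lifr (7090614 to 7197489, plus strand) are neighbours on chromosome 15, with 215644 bases and no protein-coding gene between them. No source used here names the authors' genome build. Of the listed transcript names, those of Il6 and Osmr do not occur in GENCODE M21, and the name Lifr-203, which does, was not taken as a match, so values belong to the names in the tables. The 4 annotated protein-coding Il6 transcripts end within 384 bases of each other, against a span of 32923 bases for the 6 of Lifr. Libraries were made by 3′ mRNA-Seq, which reads the end of each transcript, so Il6-001 and Il6-003 may share reads.

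The promoter window of Il6 (250 bases before to 50 bases after the start, RefSeq, GRCm38.p6) holds letters known as binding motifs of factors that act on this gene. They are shown because genes for AP-1 subunits are among the linked genes described further on. Capitals mark the match, and each stretch is given 5′ to 3′ on the plus strand of chromosome 5.
Il6 AP-1, chr5:30012864-30012893: cTGAGTCActtttaaagaaaaaaaagaaga
Il6 CRE and C/EBP, chr5:30012972-30013001: taaacgACGTCAcaTTGTGCAAtcttaata
Il6 NF-kB, chr5:30013060-30013089: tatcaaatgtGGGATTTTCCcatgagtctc
The AP-1 motif (TGANTCA), searched on both strands, starts 249 bases before the Il6 start and occurs in 7.81% of the 32851 promoter windows. The core of the cyclic AMP response element (CRE, TGACGT) starts 136 bases before the start, where it reads on the minus strand, and occurs in 7.51% of windows. The C/EBP motif (TTGNGCAA) starts 128 bases before the start and occurs in 2.94% of windows, and the NF-kB motif (GGGA, any base, TTTCC) starts 44 bases before it and occurs in 0.411%. No match overlaps another. Of these motifs, the Osmr window holds AP-1 alone, and the windows of Lifr hold none. The STAT motif (TTCNNNGAA, 8.3% of windows) was found in no window of the 3 genes. A match is a string of letters and no measured site.

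The tables give 1 mean per group and no value per library, so no standard deviation, no test between the groups and no value without a given library can be had. Each ratio below was computed here from the authors' mean for ATP-treated msEGCs over their mean for control msEGCs. From the values, 4 tables (cytokine response, cell motility, MAPK cascade and significant genes) hold a signal scaled for library depth, and the gliosis table holds estimated counts without such scaling. For every transcript of these genes, the deposited total was the sum of 6 ATP means and 5 control means (relative tolerance 1e-06). Library codes fall into 3 series, with 3 ATP and 0 control libraries, 0 and 2, and 3 and 3, so series and treatment cannot be told apart in the pooled means. Depth per library is unknown. In bulk RNA, fewer cells of a type and less RNA per cell cannot be told apart.

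Il6-001 was higher, and Osmr-001 and Lifr-203, of receptor chains for other ligands, were lower in ATP-treated msEGCs. Il6-001 had a depth-scaled mean of 11.6 in ATP-treated msEGCs, against 1.93 in control msEGCs, which is 6.02-fold higher. Osmr-001 had 18.0 in ATP-treated and 58.2 in control msEGCs, 3.23-fold lower. Lifr-203 had 5.97 in ATP-treated and 16.9 in control msEGCs, 2.84-fold lower. Il6-003, the other listed transcript of the cytokine, had 1.65 in ATP-treated and 1.98 in control msEGCs, a ratio of 0.833, which lies within 1.5-fold, the fold limit in the study's methods. That limit is used here as a size alone, with no test. These values were equal in every depth-scaled table that lists the transcript.

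**Figure D1:**
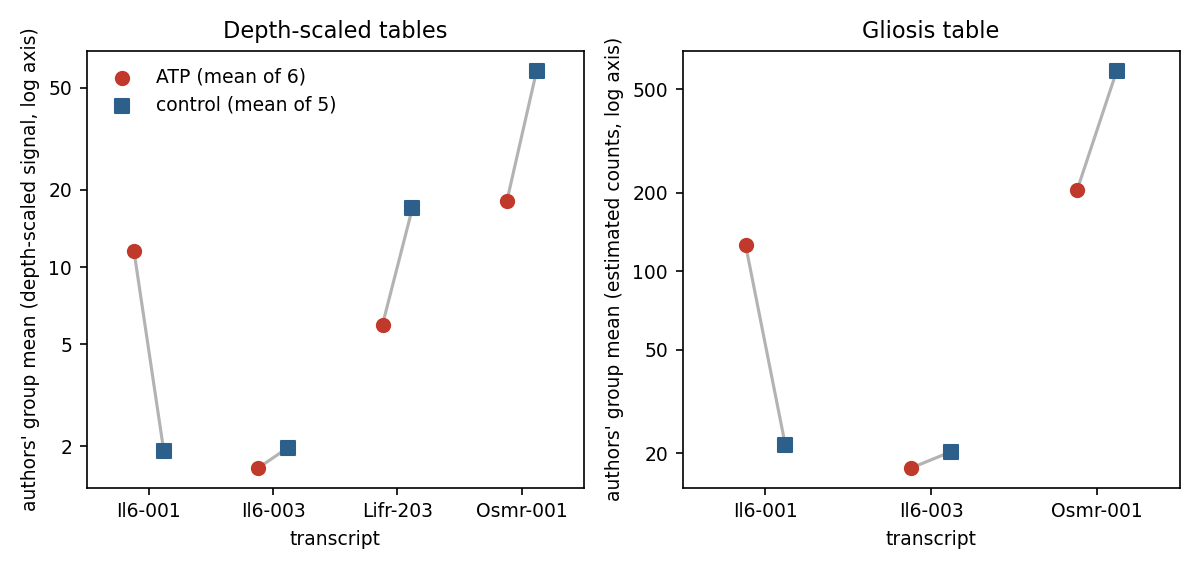
Authors' group mean of each listed transcript of Il6, Lifr and Osmr on log axes, in depth-scaled signal (left) and in estimated counts of the gliosis table (right), with ATP as red circles (mean of 6) and control as blue squares (mean of 5). Il6-001 is higher with ATP, at 11.6 against 1.93 in depth-scaled signal, Osmr-001 and Lifr-203 are lower, and Il6-003 differs little.

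Il6-001 is listed in all 5 tables, and Il6-003 in all but the significant genes. Osmr-001 is listed in the gliosis, cytokine response and significant genes tables. Il6-001 and Il6-003 were the only members in the cell motility table, where 33.2% of 325 transcripts were at least 1.5-fold higher and 33.8% lower, and in the MAPK cascade table, where it was 26.8% and 36% of 228. Lifr-203 is listed in the cytokine response table and the significant genes, and has no gliosis value. The table of significant genes holds only transcripts past 1.5-fold, so the direction of a row there can be read but not the fact that it is past the limit. Of its 2070 transcripts (without a Gfap row copied from the gliosis table), 47.7% were higher and 52.3% lower. Among those higher, Il6-001 ranked 27 of 988 by its ratio. Among those lower, Osmr-001 ranked 208 and Lifr-203 320 of 1082. The 3 transcripts also stood at different control levels: 6.28% of the listed transcripts had a control mean below that of Il6-001, 63.5% one below that of Lifr-203 and 88.8% one below that of Osmr-001. Il6-001, with its large ratio, was thus among the low control values of that table, and the OSMR transcript among the high ones.

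In the cytokine response table, which lists all 4 transcripts, 27.6% of 174 transcripts were at least 1.5-fold higher and 37.9% at least 1.5-fold lower, with a median ratio of 0.886. Of the 4, 1 was past the limit in the higher and 2 in the lower direction. Of the 86 genes in that table, 77 also have a row among the significant genes, so this share is that of a selected list. The gliosis table was drawn up from published work on reactive astrocytes and not from these samples. There, 32.9% of 222 transcripts were at least 1.5-fold higher and 27.5% lower, so that 54.5% of those past the limit were higher. After division by the median table factors described further on, it was 26.6% and 36.5%, and 42.1% of those past the limit were higher. Of the 3 member transcripts it lists, Il6-001 was past the limit as higher, Osmr-001 as lower and Il6-003 in neither direction.

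In the gliosis table, Il6-001 had a mean of 126.5 estimated counts in ATP-treated and 21.5 in control msEGCs, 5.88-fold higher. Multiplied by the number of libraries, these means stand for 759.2 counts in ATP-treated and 107.6 in control msEGCs, and the exact (Clopper-Pearson) 95% interval of the ratio was 4.78 to 7.23. Osmr-001 had 204.5 in ATP-treated and 590.5 in control msEGCs, 2.89-fold lower (interval 2.70 to 3.09, from 1227 and 2953 counts). Il6-003 had 17.5 in ATP-treated and 20.3 in control msEGCs, a ratio of 0.866 with an interval of 0.647 to 1.14. Divided by the median table factors described further on, its ratio was 0.746. The intervals in this paragraph are without that division, so a ratio of 1 in them need not mean equal levels. These intervals cover counting error only. They hold nothing of the spread between cultures or of the error in assigning reads to transcripts. Reads copied by PCR are not independent molecules. Lifr-203 has no estimated count and therefore no interval.

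The shares of Il6 assigned to its 2 transcripts differed between the groups. Il6-001 made up 87.5% of the summed depth-scaled Il6 mean in ATP-treated and 49.3% in control msEGCs. In the gliosis table, its share was 87.8% in ATP-treated msEGCs (exact 95% interval 85.5% to 90.0%) and 51.5% in control msEGCs (44.7% to 58.6%). Again the intervals cover counting error only. The 2 transcripts may share reads, and the error of assigning reads between them is not in the intervals. Whether the use of the 2 transcripts differed between the groups was therefore not tested. Over both transcripts, Il6 had a depth-scaled sum of 13.24 in ATP-treated and 3.91 in control msEGCs, a ratio of 3.39. The summed ratio was thus smaller than that of Il6-001 alone. The same sum in the gliosis table gave 3.45.

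**Figure D2:**
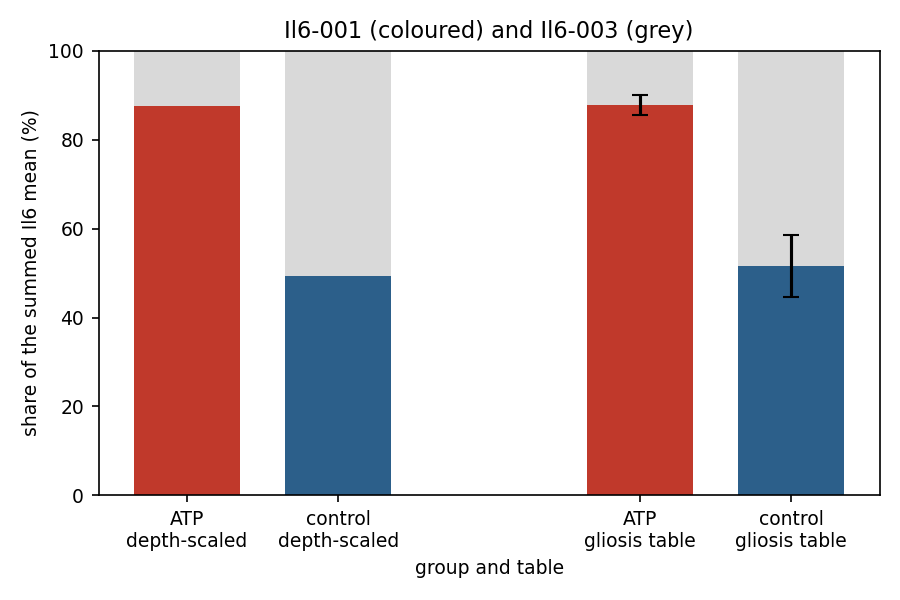
Share of the summed Il6 mean (%) assigned to Il6-001 (coloured) and Il6-003 (grey) in ATP and control msEGCs, from the depth-scaled tables (left pair) and the gliosis table (right pair). Error bars, on the gliosis pair alone, are exact 95% intervals for counting error. Il6-001 holds 87.5% with ATP and 49.3% in control in the depth-scaled tables.

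The same transcript can be compared between the table types, because 49 transcripts are listed in the gliosis table and in a depth-scaled table with values of their own. Over the 46 of them that are not Il6 or Osmr, the gliosis mean was a median of 11.7 times the depth-scaled mean in ATP-treated msEGCs and 10.1 times in control msEGCs. Dividing the ATP factor by the control factor gave a median of 1.16 (range 1.06 to 1.27), so ratios of the gliosis table run higher. Between the 2 median factors of these 46, the shift was 0.21 on the log2 scale. Osmr-001 followed this pattern, with factors of 11.3 for ATP and 10.1 for control and a quotient of 1.12, so the receptor was less far below control in the gliosis table. Il6-001 did not. Its factors were 10.9 for ATP, the fifth lowest of 49, and 11.2 for control, the highest of 49. Its quotient of 0.977 was the lowest of the 49 and the only one below 1, so its ratio was larger on depth-scaled values. Il6-003 had the next lowest quotient, 1.04, with factors of 10.6 and 10.2. If each library was scaled by 1 number, the factor of a group is the mean of those numbers weighted by the transcript's own level in each library. Whether the Il6 reads of a group come unevenly from its libraries was not tested, as the tables hold no library values.

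**Figure D3:**
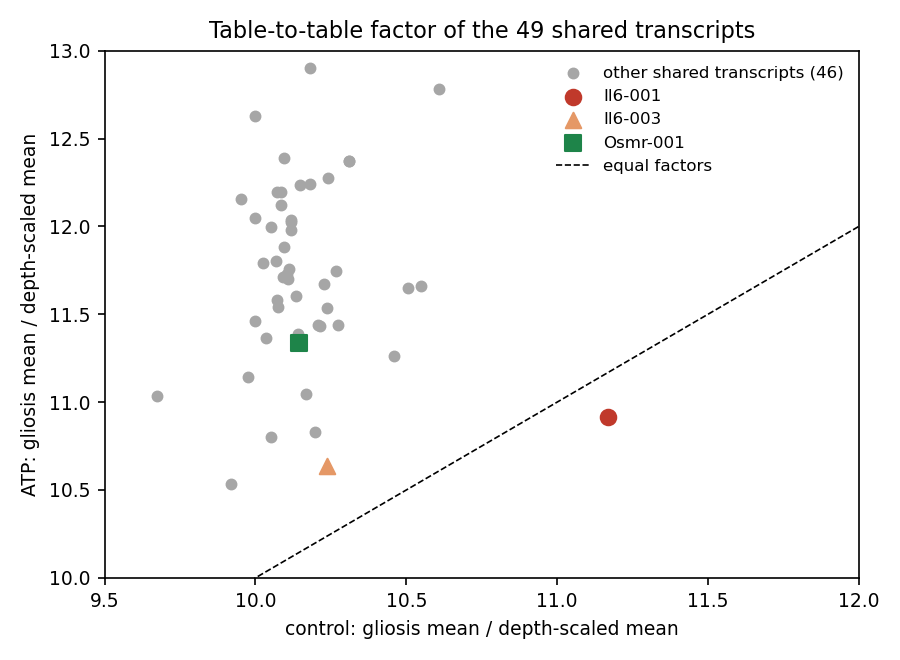
Gliosis mean over depth-scaled mean of each of the 49 transcripts listed on both scales, with ATP on the vertical and control on the horizontal axis. Il6-001 (red) is the only transcript below the dashed line of equal factors, with 10.9 for ATP and 11.2 for control, while Osmr-001 (green) lies among the other transcripts (grey).

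Il11, Clcf1 and Lif, of the same family, were listed with the direction of Il6-001. From the family cytokine list and its counts, 1 item was left out after the data were seen. Of the 11 genes kept, 4 have a row, with 5 transcripts (both of Il6 included). Of these 5 transcripts, 4 were at least 1.5-fold higher, 0 lower and 1 (Il6-003) within the limit. Their median ratio was 2.05, which is the gliosis value of Clcf1-001 and becomes 1.77 after division by the median table factors. Over all 2510 transcripts, of which most were selected for a difference, 43% were higher and 45.9% lower, with a median ratio of 0.939. Of these, 1737 are in the table of significant genes alone, and over the other 773 the shares were 30% higher and 34.2% lower. These 773 are not free of selection. Of the genes in the cytokine response, cell motility and MAPK cascade tables, 77 of 86, 147 of 176 and 97 of 117 have a row among the significant genes. The family cytokine transcripts other than those of Il6 have gliosis values alone. Il11-001, which encodes interleukin 11, had 26.3 estimated counts in ATP-treated and 7.80 in control msEGCs, a ratio of 3.38 (counting interval 2.37 to 4.92). Clcf1-001, a ligand of the receptor made of CNTFR, LIFR and gp130, had 115.9 in ATP-treated and 56.5 in control msEGCs, a ratio of 2.05 (1.78 to 2.36). Lif-201, the ligand of LIFR, had 14.2 in ATP-treated and 7.38 in control msEGCs, a ratio of 1.92 (1.29 to 2.90). Divided by the median table factors, these 3 ratios were 2.91, 1.77 and 1.66. Osm, Cntf, Ctf1, Ctf2, Il27, Ebi3 and Il31 have no row and thus no value here, so the ligand of OSMR was not measured in these tables.

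Il11ra1 and 1 of 2 Il6ra transcripts were listed with the direction of Osmr-001 and Lifr-203. Of 9 receptor genes examined, 4 have a row, with 5 transcripts (Osmr-001 and Lifr-203 included), of which 0 were higher, 4 at least 1.5-fold lower and 1 within the limit. Their median ratio was 0.378. Over all 2510 transcripts, 43% were higher and 45.9% lower, with a median ratio of 0.939. Il11ra1-009 is in the table of significant genes alone, where each row is past the limit. Without it 3 of 4 were lower, with a median of 0.466, beside 34.2% of all transcripts chosen in that way. This count is not free of selection, since Osmr-001 and Lifr-203 are also among the significant genes. Il11ra1-009, the receptor chain for interleukin 11, had depth-scaled means of 83.5 in ATP-treated and 220.9 in control msEGCs, 2.64-fold lower. Il6ra-001, of the receptor chain that binds IL-6 itself, had 8.90 in ATP-treated and 15.4 in control msEGCs, 1.73-fold lower. Its other transcript, Il6ra-201, had 4.36 in ATP-treated and 3.596 in control msEGCs, a ratio of 1.21. Over both, Il6ra had a sum of 13.3 in ATP-treated and 19.0 in control msEGCs, 1.43-fold lower, which is within the limit. In the gliosis table, Il6ra-001 was 1.51-fold lower (counting interval 1.36 to 1.68) and Il6ra-201 had a ratio of 1.39 (1.15 to 1.68). These gliosis values and intervals are without division by the median table factors. The gene for the shared chain gp130, Il6st, has no row, and neither have Cntfr, Il11ra2, Il27ra and Il31ra. Within the gliosis table alone, which was not drawn up from these samples, 4 of 5 family cytokine transcripts were higher and 2 of 3 receptor transcripts lower. Of all 222 transcripts there, 32.9% were higher and 27.5% lower, or 26.6% and 36.5% after division by the median table factors. Il6ra-001, at 1.51-fold, was barely past the limit there.

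**Figure D4:**
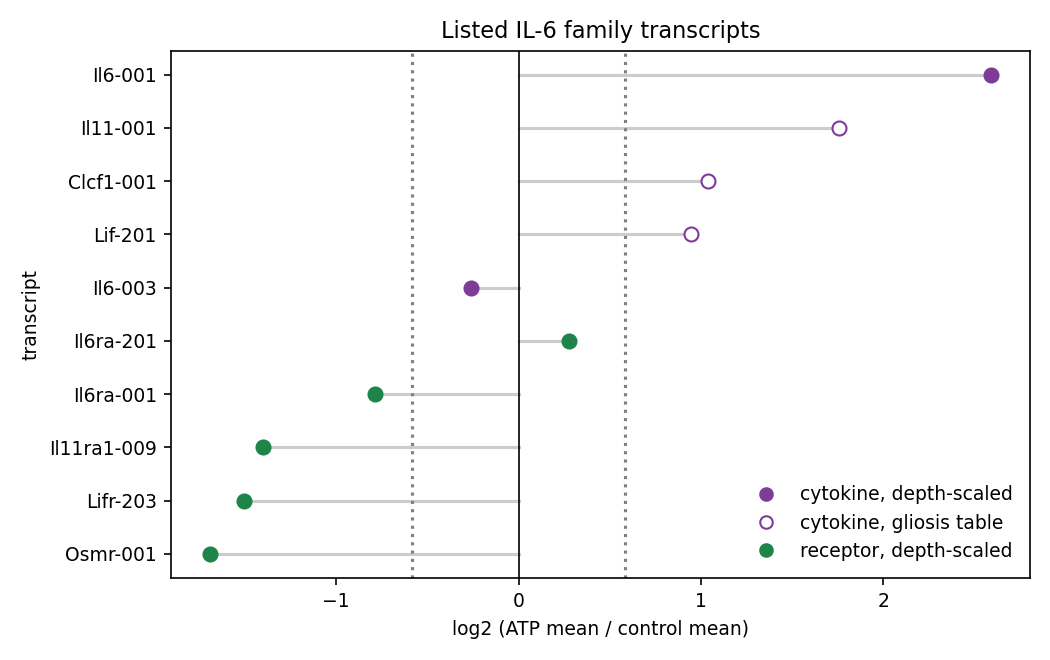
Log2 ratio of the ATP mean to the control mean for 10 listed transcripts of IL-6 family cytokines (purple) and receptors (green). Filled points are depth-scaled, open points are gliosis table values, and dotted lines mark 1.5-fold. Of the cytokine transcripts shown, 4 of 5 lie to the right of the limit, and of the receptor transcripts shown, 4 of 5 lie to the left.

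Of 11 genes of the JAK-STAT signal, Stat5a alone has a row, with depth-scaled means of 4.74 in ATP-treated and 7.74 in control msEGCs for Stat5a-201, 1.63-fold lower. Jak1, Jak2 and Stat3 have no row. Of 9 feedback inhibitors, Socs3 among them, none has a row. The absence of a row says nothing of a gene's level.

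Among genes known as STAT3 targets or acute phase genes, 13 of 21 have a row. With 1 transcript per gene, 1 was higher, 9 were lower and 3 were within the limit, with a median ratio of 0.414, beside 43% higher and 45.9% lower over all 2510 transcripts. Over all 26 transcripts of the list, 5 were higher, 17 lower and 4 within the limit. Without the 2 that are in the table of significant genes alone, 5 of 24 were higher and 15 lower (20.8% and 62.5%), beside 30% and 34.2% of all transcripts chosen in that way. The list was chosen with results known, and these counts take gliosis values as deposited. Divided by the median table factors, Vim-005 (ratio 1.34) and Gfap-201 (1.44, groups as labelled) would lie within the limit. Timp1-001 would then be 1.74-fold lower and past it. Saa3-002, an acute phase serum amyloid, had depth-scaled means of 986 in ATP-treated and 3279 in control msEGCs, 3.32-fold lower. Steap4-001, a metalloreductase, was 3.23-fold lower, at 4.77 in ATP-treated and 15.4 in control msEGCs. Serpina3g-001, a protease inhibitor, was 10.1-fold lower, at 3.998 in ATP-treated and 40.4 in control msEGCs. Serpina3g has close relatives in a gene cluster, and whether they share reads with it was not tested. In the gliosis table, C3-001, complement component 3, was 2.92-fold lower, with 4285 estimated counts in ATP-treated and 12501 in control msEGCs. These 4 genes were named for the largest folds below the limit, so their direction was fixed by that choice. The higher transcripts were those of Vim and Gfap, which encode intermediate filament proteins. Vim-006 had 11855 estimated counts in ATP-treated and 5947 in control msEGCs (1.99-fold), Vim-004 was 4.11-fold and Vim-005 1.56-fold higher, and Vim-001, which has the largest total, had a ratio of 1.35. Gfap-001 had 358.5 in ATP-treated and 203.5 in control msEGCs, but its deposited total equals 5 ATP means and 6 control means, so the 2 means may be swapped and its direction is uncertain. Turned round, its ratio would be 0.568, and with 1 transcript per gene 0 would be higher and 10 lower.

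Of 30 regulators of Il6 transcription and mRNA decay, 11 have a row, with 5 higher, 4 lower and 2 within the limit (1 transcript per gene), near the 43% and 45.9% of all 2510 transcripts. Without the 3 that are in the table of significant genes alone, 6 of 18 transcripts were higher and 6 lower (33.3% each), beside 30% and 34.2%. The AP-1 genes Fosl1 and Jun were higher: Fosl1-201 had depth-scaled means of 32.5 in ATP-treated and 3.53 in control msEGCs (9.20-fold), and Jun-001 had 326 in ATP-treated and 186 in control msEGCs (1.75-fold). Map2k3-002, a kinase that activates p38, was 1.75-fold higher, at 38.4 in ATP-treated and 22.0 in control msEGCs. Nfatc2-003, a calcium-regulated transcription factor, had 22.9 estimated counts in ATP-treated and 3.94 in control msEGCs in the gliosis table (5.81-fold), while its other listed transcript, Nfatc2-002, was 1.85-fold lower. Lower were Nr3c1-201, the glucocorticoid receptor (2.0-fold), Cebpd-001, a C/EBP factor (1.94-fold), Zfp36l1-201, an mRNA decay factor (1.93-fold), and Nfat5-002 (1.55-fold). Nfat5-003 was 2.46-fold lower, while Nfat5-201 lay within the limit at a ratio of 1.15. The NF-kB genes Nfkb1, Rela and Nfkbia have no row.

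**Figure D5:**
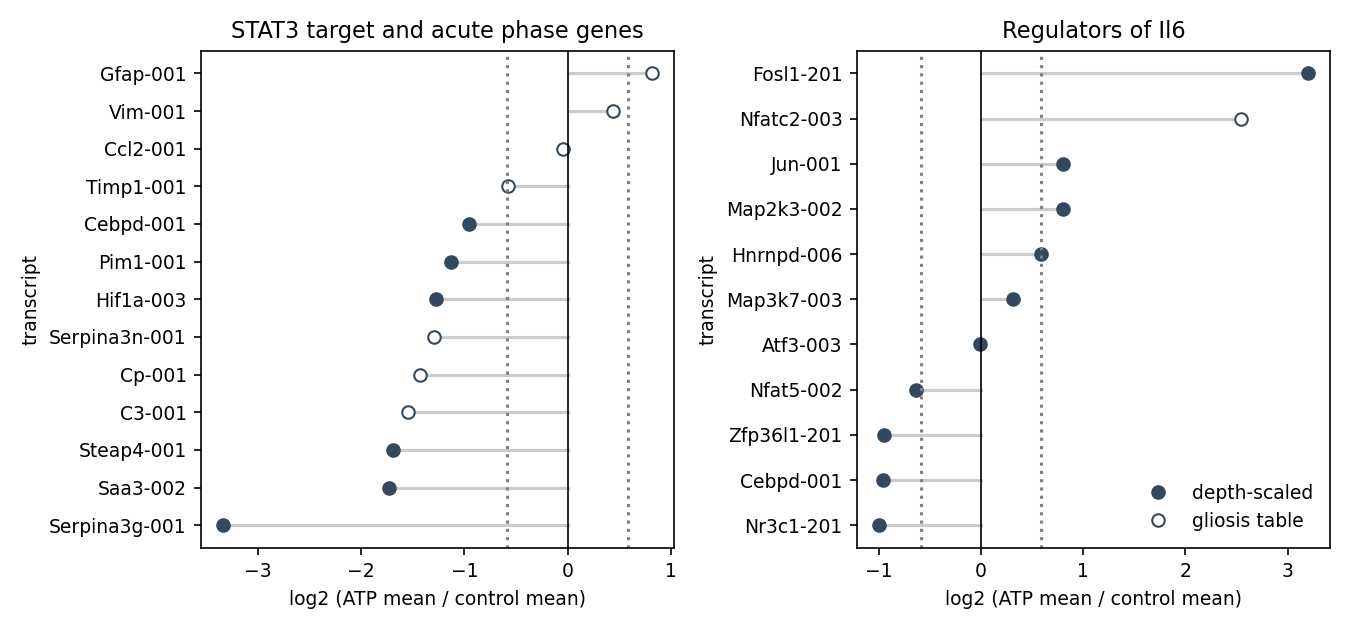
Log2 ratio of the ATP mean to the control mean for STAT3 target and acute phase genes (left) and regulators of Il6 (right), 1 transcript per gene, filled for depth-scaled and open for gliosis table values, with dotted lines at 1.5-fold. In the left panel 9 of 13 genes lie to the left of the lower limit and Gfap-001, whose direction is uncertain, to the right of the upper one, and in the right panel 5 of 11 lie to the right of it.

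Fibroblast markers were lower together with the receptors. Of 10 such genes, 3 have a row, with 5 transcripts, all 5 lower, beside 45.9% over all transcripts. Col1a2-003, in the table of significant genes alone, was 3.97-fold lower, and without it 4 of 4 were lower, beside 34.2%. Col3a1-001 had depth-scaled means of 826 in ATP-treated and 2870 in control msEGCs (3.47-fold), and Dcn-202 had 22518 estimated counts in ATP-treated and 51612 in control msEGCs (2.29-fold). The ratios of the 5, on mixed scales, ranged from 0.219 to 0.437. The lowest was that of Col3a1-004, with a depth-scaled ATP mean of only 0.767. The highest, of Dcn-201, is a gliosis value and becomes 0.376 after division by the median table factors. The part of fibroblasts in the lower Osmr and Lifr values was not tested. Of 12 enteric glia markers, Gfap and Nes have a row, with Nes-001 at 3527 estimated counts in ATP-treated and 1711 in control msEGCs (2.06-fold higher) and Nes-003 at 1129 in ATP-treated and 1091 in control msEGCs (a ratio of 1.03, or 0.892 after division by the table factors). Sox10 and S100b have none, so only 2 of 12 markers could be looked at. The direction of Gfap is uncertain, as its 2 means may be swapped. A ratio between groups does not show whether the cells are glia. Of macrophage markers, which could mark another source of IL-6, 2 of 9 have a row: Cd68-001 had 43.05 estimated counts in ATP-treated and 22.6 in control msEGCs, and Cd14-201 had 22.5 in ATP-treated and 41 in control msEGCs. Ptprc, Adgre1 and Csf1r have no row. Their part in the higher Il6 values was not tested. Of 8 smooth muscle markers 1 was listed (Lmod1-001, 2.56-fold lower), of 9 enteric neuron markers 2 were listed (Uchl1-002 at 1.88-fold and Ret-002 at 1.63-fold higher, and Uchl1-001 and Ret-001 within the limit at ratios of 1.48 and 1.20), and of 6 endothelial markers none.

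With 2 group means per transcript, likeness between patterns can be given as the distance of the log2 ATP mean and the log2 control mean alone. Among the significant genes, the nearest transcripts to Il6-001 were Dnaja2-002, Plec-010 and Syncrip-003, at distances of 0.17 to 0.21. Nearest to Lifr-203 were Cxcl12-002, a chemokine, at 0.04, then Fbxo3-001 and Luc7l2-013. Nearest to Osmr-001 were Prrg3-001 and Tgfb1i1-012, both at 0.08, and Cd248-201, a surface protein of fibroblasts and pericytes, at 0.10.

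The deposited gene ontology table counts, for each of 11920 terms, the genes in a list of 2023 out of 14784 annotated genes (13.7%), without naming genes or directions. In 28 terms that name these ligands or their close relatives, the share in the list ranged between 5.56% and 100%. Of 7 genes annotated to interleukin-6 receptor binding 3 were in the list, and of 3 genes annotated to oncostatin-M receptor activity 2 were. Of the genes of the regulation of interleukin-6 production 18 were in the list (15.7%), with 15 of 70 for its positive and 3 of 38 for its negative regulation. For the cellular response to leukemia inhibitory factor it was 20 of 118 (16.9%). Terms overlap, several hold few genes each, and no source used here names the list.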

How the data were processed

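RNA of 6 ATP-treated and 5 control msEGC cultures was sequenced by QuantSeq 3′ mRNA-Seq (single-end, 50 bases). The submitters' processing notes name Partek, and no source used here names the aligner, genome build or annotation. In the gliosis table the authors deposited group means and totals of estimated counts, which from the values were not scaled for depth. In the other 4 transcript tables the authors deposited group means and totals of a signal that, from the values, had been scaled for depth. No source used here states this scaling or its method. A sixth table holds gene numbers per gene ontology term. Further deposited columns hold the authors' p-values, adjusted p-values, ratios, fold changes and enrichment scores, and were not used.

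Ratios were computed from the group means with no pseudocount, and 1.5-fold was the limit. Depth-scaled values were taken where a transcript had both. Exact 95% intervals were computed from group sums (mean times libraries), rounded to whole counts. The copied Gfap row was left out of the depth-scaled tables. No test was possible, since the tables hold no library values. Python 3.11.15, pandas 2.3.3 and SciPy 1.17.1 were used, and the steps were tested on simulated data. Promoter sequences came from RefSeq (GRCm38.p6) and positions from GENCODE M21, in which all 3 genes were found. Genes named were the listed transcripts of the family genes examined, up to 4 genes per direction of each other list, and the 3 nearest transcripts. The genes, lists and rules were chosen with earlier results of these data known. Of the genes that this rule names, those not printed are covered by the counts. Alternatives were pseudocounts of 1 and 5, a fold of 2, a group mean of at least 10, 1 transcript per gene, gene sums and the other scale, and, chosen after seeing the data, lists without transcripts in the table of significant genes alone and Gfap means turned round. Some items are not reported here, and 1 was left out of the family cytokine list and its counts after the data were seen.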

Additional observations from a re-analysis of the deposited data

How the results depend on the processing

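No alternative turned the direction of Il6-001, Osmr-001, Lifr-203 or Il6-003, and the numbers of family transcripts past the limit stayed within 1.5 times under every alternative run. A pseudocount of 1 brought the ratio of Il6-001 to 4.30 and that of Lifr-203 to 0.389. A pseudocount of 5 brought Il6-001 to 2.40, Lifr-203 to 0.5002 and Osmr-001 to 0.364. The gliosis values gave Osmr-001 0.346. Summing both Il6 transcripts gave 3.39 on depth-scaled and 3.45 on gliosis values, the second chosen after seeing the data. At a fold of 2, the shares of all transcripts past the limit were 20.7% higher and 18% lower in the gliosis table, 11.5% and 24.1% in the cytokine response table, 13.2% and 18.5% in the cell motility table, 9.65% and 27.2% in the MAPK cascade table, 20.4% and 32.9% in the significant genes, and 18.4% and 28.8% over all tables. With gliosis means divided by the median table factors, chosen after seeing the data, 42.1% of the transcripts past the limit were higher, against 54.5% as deposited. No paired analysis was possible because the tables hold group means alone, and for the same reason no library could be left out.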
